A study of Mus musculus with 2 samples.

Results

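The genes described here are 36 genes of the extracellular matrix and the basement membrane, taken as a fixed list of symbols from 32286 counted features. The caudal tissue came from mouse embryos of the strain C57BL/6J, genotype wild type, at embryonic day 8.5. All 36 symbols were present in the feature table, and all 36 passed the filter on low counts. The series holds 1 group with 2 libraries, replicate 1 and replicate 2, made from pooled dissected tissue with the 10x Genomics 5′ kit. The labels name no mutation and no treatment, and every comparison sets cell classes of this tissue against each other. How many embryos each pool held is not known here, and nothing states that the libraries came from separate pools. The p-values measure how far differences between classes vary between these 2 libraries, after a shift shared by all classes is removed. That spread may be technical.

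The extracellular matrix is the network of secreted proteins and polysaccharides that surrounds cells. The basement membrane is its sheet-like form beneath epithelia and around vessels, built of laminin and type IV collagen networks that nidogens and the proteoglycan perlecan join. The interstitial matrix between mesenchymal cells holds fibrillar collagens, fibronectin, fibrillin microfibrils and a hydrated gel of hyaluronan and versican. In the mouse embryo fibronectin is known to be required for somite formation and for heart and vessel development, and laminins are required for basement membrane assembly.

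Promoter windows from RefSeq were matched for 24 of the 36 genes (build GRCm38.p6, 250 bases before to 50 bases after the annotated start). Those of type IV and fibrillar collagens are shown because Col4a1 and Col4a2 kept the steadiest ratio of the gene pairs compared, and because these fibrillar genes were all highest in lateral plate mesoderm. Col4a1 and Col4a2, the chains of the common type IV collagen trimer, are transcribed in opposite directions from starts that overlap by 22 bases on chromosome 8, and their windows share 78 bases. The first sequence is 30 bases of the plus strand before the Col4a2 start (chr8:11312773-11312802). The others are the 250 bases before the start of Col1a2 (chr6:4505368-4505617), Col3a1 (chr1:45311288-45311537) and Col5a1 (chr2:27886175-27886424), all on the plus strand. Capitals mark 3 motifs searched on both strands, which do not overlap here: the CCAAT box, the GC box spelled GGGCGG, and the TATA box spelled TATAAA.
Col4a2: CCAATttgttggcgctgccccctcccctcg
Col1a2: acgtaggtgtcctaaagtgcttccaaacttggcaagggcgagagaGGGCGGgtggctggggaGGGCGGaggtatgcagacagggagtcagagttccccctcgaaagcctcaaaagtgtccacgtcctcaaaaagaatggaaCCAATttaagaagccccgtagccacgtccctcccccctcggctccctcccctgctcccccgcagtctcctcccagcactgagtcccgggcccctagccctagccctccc
Col3a1: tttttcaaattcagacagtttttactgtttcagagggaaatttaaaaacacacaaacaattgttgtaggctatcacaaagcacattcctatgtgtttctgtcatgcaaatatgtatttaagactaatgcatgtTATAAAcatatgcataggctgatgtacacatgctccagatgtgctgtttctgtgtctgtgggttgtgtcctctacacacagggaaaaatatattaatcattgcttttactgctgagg
Col5a1: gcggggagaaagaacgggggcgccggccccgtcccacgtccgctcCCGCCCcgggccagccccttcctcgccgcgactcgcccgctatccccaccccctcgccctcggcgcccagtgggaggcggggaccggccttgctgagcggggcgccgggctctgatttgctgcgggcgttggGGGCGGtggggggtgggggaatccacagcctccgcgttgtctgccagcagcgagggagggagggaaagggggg
CCAAT occurred in 37.4% of all 32851 RefSeq windows, GGGCGG in 35.7% and TATAAA in 13.6%. Col1a2 held CCAAT and GGGCGG in the bases shown, Col5a1 held GGGCGG, and Col3a1 held TATAAA and neither of the others.

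Barcodes with at least 2000 unique molecular identifiers (UMIs) and 0.3 to 10% mitochondrial UMIs were kept, which left 11244 of 30449 barcodes in replicate 1 and 8328 of 18245 in replicate 2, with medians of 17873 and 13686 UMIs. A barcode joined the cell class with the most detected markers, given at least 2 markers and a lead of at least 1. The gate placed 9061 (80.6%) and 6959 (83.6%) barcodes in 13 classes, and none of the 36 genes is a marker. Class names stand for these marker gates, so cells of a class resemble the named type in the markers used. In each of the 9 classes tested, at least 2 of its own markers were among the 10 genes with the largest fold over the other classes, and no other class had more than 1 there. Barcodes were assigned by these same markers, so this follows largely from the gate and is no independent check of the names. Marker lists of neighbouring classes were not at 0. The summed caudal epiblast markers lay at 301 and 357 CPM (UMIs scaled to 1000000 per class) in presomitic mesoderm, against 1093 and 1076 CPM in caudal epiblast, and the extraembryonic endoderm markers lay at 367 and 385 CPM in gut endoderm. The libraries shared 761 barcode sequences, and the part of shared barcodes in the results was not tested.

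The class with the highest level differed from gene to gene. UMIs were summed per class and library, and pairs of values below are CPM in replicate 1 and replicate 2. Lateral plate mesoderm held the highest mean level of 10 genes, surface ectoderm of 7, endothelium of 6, gut endoderm of 5, presomitic mesoderm and somite of 3 each and intermediate mesoderm of 2. Caudal epiblast and neural tube were highest for 0 of the 36. The same class was highest in both libraries for 24 genes, and for 15 the libraries of the highest class lay above both libraries of the next class. The shares over all genes were not counted, so these 2 counts describe the list and do not set it apart from other genes. The summed level of all 36 genes was 3705 and 4632 CPM in endothelium, 2929 and 2843 CPM in gut endoderm, 1406 and 1443 CPM in caudal epiblast, and 1206 and 1433 CPM in neural tube. Such a sum follows its most abundant genes. In the tests below, endothelium had 12 of the 36 genes higher and 14 lower than the mean of the other classes. In blood cells, which should lack most of these transcripts, the summed level was 233 CPM (141 barcodes, replicate 2 only), and the source of these UMIs was not tested.

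**Figure D1:**
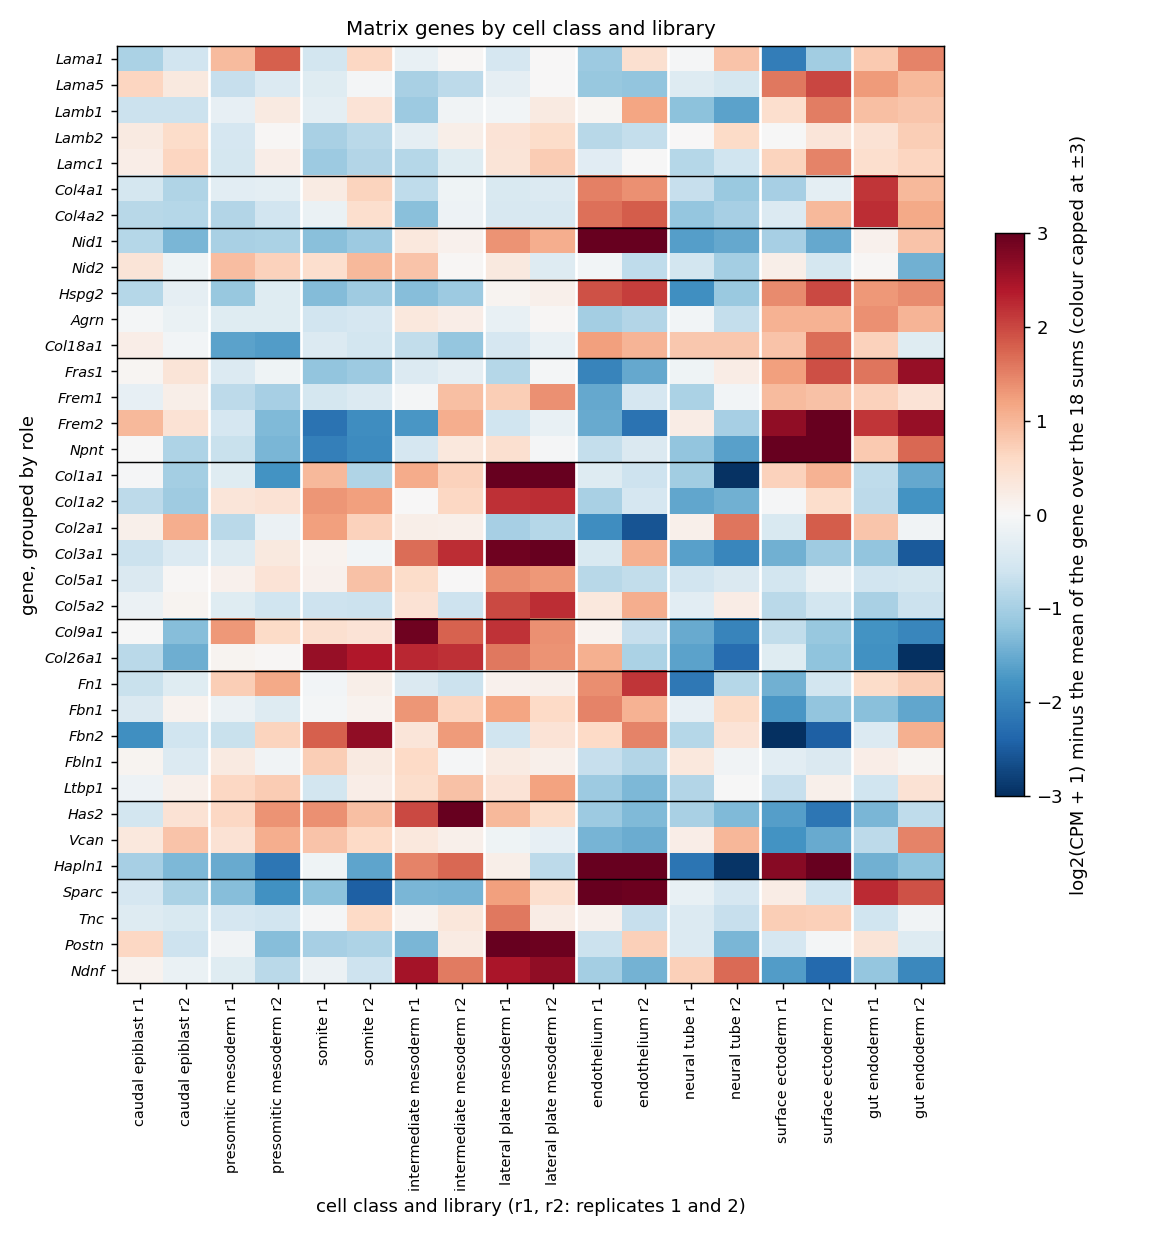
Levels of the 36 matrix genes (rows, grouped by role) in each of 9 cell classes and 2 libraries (columns), as log2(CPM + 1) minus the mean of each gene over the 18 sums; red is above and blue below that mean. Fibrillar collagens other than Col2a1 are red in lateral plate mesoderm, Nid1, Hapln1 and Sparc in endothelium, and Npnt, Frem2 and Hapln1 in surface ectoderm.

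Each class was compared with the mean of the log levels of the other 8 classes (edgeR quasi-likelihood F test, library as a block, p-values adjusted over 14125 genes, threshold 0.05, n = 2 libraries per class). Lateral plate mesoderm leaned to higher levels, with 18 of 36 genes higher and 1 lower, against 8.81% and 6.27% of all genes tested. Its median log2 difference over the 36 genes was 0.48, beside 0.0073 over all genes. Neural tube leaned the other way, with 3 genes higher and 20 lower, against 13.6% and 12.7% of all genes, and a median of -0.73 beside -0.0095. In caudal epiblast 3 genes were higher and 13 lower, against 9.75% and 6.33% of all genes (median -0.22 beside 0.02), so its share higher was near the background. Presomitic mesoderm had 6 higher and 10 lower, against 9.38% and 7.04% (median -0.35 beside 0.02). Without the library block, 3 genes passed in caudal epiblast and 10 in presomitic mesoderm. The share of all genes that passed without the block was not counted.

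Somites had 8 genes higher and 10 lower, against 10.5% and 9.37% of all genes (median 0.08 beside -0.0048). Intermediate mesoderm, the smallest class with 83 and 129 barcodes, had 7 higher and 5 lower, against 2.99% and 2.15% (median 0.25 beside -0.04). The epithelial and vascular classes moved in both directions. Surface ectoderm had 13 genes higher and 15 lower, against 18.4% and 13.5% of all genes (median -0.25 beside 9.8e-05). Gut endoderm had 17 higher and 12 lower, against 25.6% and 19.7% (median 0.49 beside 0.0081). Endothelium had 12 higher and 14 lower, against 24.8% and 20.8% (median -0.14 beside -0.04), a share higher of 33.3%, while lateral plate mesoderm had 18 of 36 higher.

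**Figure D2:**
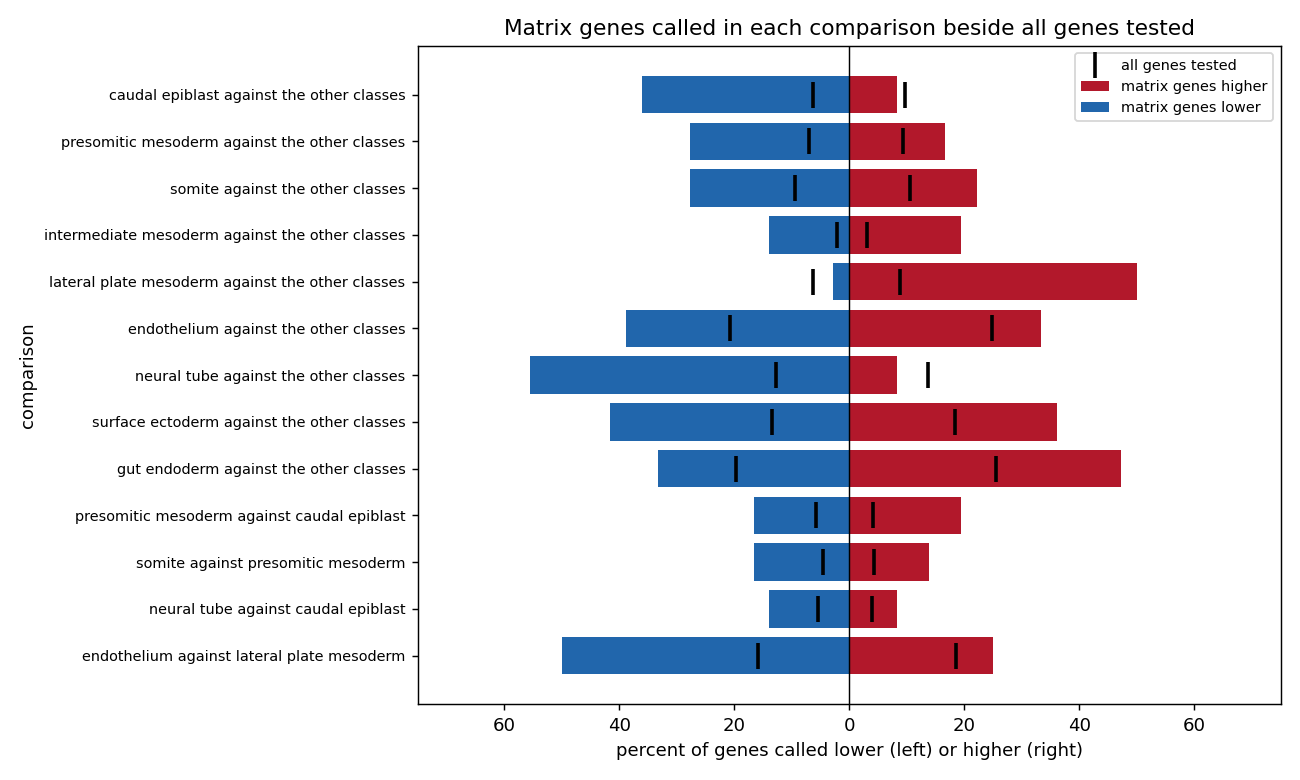
Share of the 36 matrix genes called higher (red, right) or lower (blue, left) at an adjusted p under 0.05 in 13 comparisons, with black ticks for the share of all 14125 genes tested. The lateral plate mesoderm bar stands for 18 of 36 genes higher and the neural tube bar for 20 of 36 lower.

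Laminins are trimers of an alpha, a beta and a gamma chain, and the alpha chain differs most between tissues. The alpha genes Lama1 and Lama5 divided between classes. Lama1, the alpha chain of the earliest embryonic laminin, was highest in presomitic mesoderm, at 44.6 and 81.5 CPM, followed by gut endoderm at 40.1 and 65.9 CPM, and was lowest in surface ectoderm at 4.63 and 10.5 CPM. The presomitic and gut endoderm values overlap, so their order is not settled. On the log2 scale Lama1 was higher in presomitic mesoderm than in the mean of the other classes by 1.60 ± 0.14, adjusted p = 3.88e-06, where the error is the standard error (SE). Lama5, the alpha chain of many later epithelial basement membranes, was highest in surface ectoderm, at 68.6 and 92.8 CPM, against 55.3 and 44.7 CPM in gut endoderm and 9.65 and 9.28 CPM in endothelium. Its difference in surface ectoderm was 2.03 ± 0.12, adjusted p = 2.23e-08.

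The shared laminin chains varied less. Lamb1, a beta chain, had 84.8 and 174 CPM in surface ectoderm and 111 and 107 CPM in gut endoderm, and was lowest in neural tube at 24.9 and 18.9 CPM. Its libraries disagreed on the highest class. Lamc1, the gamma chain of most laminins, had 109 and 195 CPM in surface ectoderm, 90.3 and 118 CPM in lateral plate mesoderm and 78.4 and 108 CPM in caudal epiblast, against 31.8 and 36.8 CPM in somites. It was higher in surface ectoderm (1.19 ± 0.10, adjusted p = 7.09e-07) and lower in somites (-1.10 ± 0.13, adjusted p = 5.21e-05) than in the mean of the other classes. Lamb2, another beta chain, stayed at 2.73 to 11.2 CPM in all 18 sums. The 3 genes higher in caudal epiblast were all laminin chains, Lamc1 (0.46), Lamb2 (0.53) and Lama5 (0.56 ± 0.13). The other laminin chains listed, Lamb1 and Lama1, were lower there. The share of the 36 genes higher in this class, 8.33%, was near the 9.75% of all genes.

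Type IV collagen forms the sheet of the basement membrane. Col4a1 had 507 and 223 CPM in gut endoderm and 328 and 295 CPM in endothelium, then 134 and 180.5 CPM in somites, against 69.9 and 51.9 CPM in neural tube. Col4a2 followed the same order at the top, with 211 and 98.6 CPM in gut endoderm and 142 and 159 CPM in endothelium, against 18.01 to 88.5 CPM elsewhere. In both libraries each gene was higher in gut endoderm and endothelium than in every other tested class. In replicate 1 the gut endoderm value was the higher of the pair, and in replicate 2 the endothelial value was. Col4a2 was higher in gut endoderm by 2.06 ± 0.25, adjusted p = 1.8e-05, with 2.71 and 1.09 in the libraries taken singly, and in endothelium by 2.04 ± 0.25. The ratio of Col4a1 to Col4a2 varied least of 9 related pairs, with a standard deviation (SD) of 0.45 on the log2 scale over the 18 sums, and the 2 genes had a Pearson r of 0.92 over those sums, which share 2 libraries.

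Nidogens link laminin to type IV collagen, and the 2 nidogen genes had different distributions. Nid1 had 158 and 166 CPM in endothelium, against 1.87 to 21.8 CPM in the other 8 classes, and no library overlapped. This was the largest difference that any of the 36 genes showed in any comparison, 5.13 ± 0.13, adjusted p = 1.18e-12. Among the tested classes, Nid2 had its highest means in presomitic mesoderm (103 and 87.3 CPM), somites (76.5 and 106 CPM) and intermediate mesoderm (98.7 and 55.1 CPM). Caudal epiblast came next, above lateral plate mesoderm, where Nid2 did not pass the threshold. The lowest class was neural tube, at 36.2 and 25.8 CPM. The libraries disagreed on the highest class of Nid2. Nid2 was higher in presomitic mesoderm by 0.89 ± 0.19 (adjusted p = 0.00597) and in somites by 0.91 ± 0.21 (adjusted p = 0.00719), with 0.28 and 1.47 in the libraries taken singly. The log2 ratio of Nid1 to Nid2 had an SD of 2.06 over the 18 sums, the highest of the 9 pairs.

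Perlecan, agrin and collagen XVIII are the heparan sulphate proteoglycans of basement membranes. Hspg2, which encodes perlecan, had 128 and 143 CPM in endothelium, 90.5 and 133 CPM in surface ectoderm and 83.0 and 90.8 CPM in gut endoderm, against 8.61 to 36.7 CPM in the other 6 classes. The 3 upper classes did not overlap with the rest. It was higher in endothelium by 2.43 ± 0.12, adjusted p = 9.81e-10. Agrn, which encodes agrin, had 114 and 88.6 CPM in gut endoderm and 90.6 and 89.95 CPM in surface ectoderm, against 20.9 and 23.0 CPM in endothelium. Col18a1, the precursor of endostatin, had 203 and 355 CPM in surface ectoderm, 259.5 and 224 CPM in endothelium and 194 and 196 CPM in neural tube, against 35.8 and 33.8 CPM in presomitic mesoderm. Presomitic mesoderm was lower, at -1.90 ± 0.25, adjusted p = 0.000141. Col18a1 was among the 3 genes higher in neural tube (0.90 ± 0.20), with Ndnf and Lama1.

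Fras1, Frem1 and Frem2 form a complex that anchors epithelia to the matrix beneath, and nephronectin, encoded by Npnt, is a basement membrane ligand of integrin alpha 8 beta 1. Npnt had 182 and 139 CPM in surface ectoderm, against 15.5 and 30.3 CPM in gut endoderm and 1.29 to 12.3 CPM in the other classes. Surface ectoderm was higher by 4.79 ± 0.19, adjusted p = 6.78e-10. After every cell was thinned to 5000 UMIs, Npnt was found in 59.0% (55.2 to 62.7%) of surface ectoderm cells in replicate 1 and 49.7% (45.5 to 54.0%) in replicate 2 (exact Clopper-Pearson 95% interval), against 1.80% (1.14 to 2.68%) and 1.00% (0.482 to 1.84%) of presomitic cells and 5.26% (2.14 to 10.5%) of blood cells. In replicate 2, the library that held the blood cells, the presomitic share lay below the blood share, and the source of the Npnt UMIs in blood was not tested. Without thinning the surface ectoderm shares were 92.8% and 80.5%, and the blood share was 6.77%. Thinning left out 37 and 14 surface ectoderm cells, 174 and 84 presomitic cells and 8 blood cells as too shallow. Intervals cover counting error only.

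Frem2 had 95.8 and 127 CPM in surface ectoderm and 66.2 and 93.2 CPM in gut endoderm, against 2.30 and 3.18 CPM in somites. It was higher in surface ectoderm by 3.19 ± 0.26, adjusted p = 7.57e-07, and in gut endoderm by 2.66 ± 0.28, adjusted p = 5.57e-06. Fras1 had 46.4 and 94.7 CPM in gut endoderm and 35.4 and 58.1 CPM in surface ectoderm, against 2.93 to 19.4 CPM in the other classes, and was higher in gut endoderm by 2.49 ± 0.12, adjusted p = 1.8e-09. Frem1 was not confined to epithelia. It had 27.9 and 44.0 CPM in lateral plate mesoderm and 32.4 and 31.0 CPM in surface ectoderm, against 4.99 and 11.4 CPM in endothelium, and its libraries disagreed on the highest class.

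Fibrillar collagens build the fibres of connective tissue. Of the 6 fibrillar chains listed, Col1a1, Col1a2, Col3a1, Col5a1 and Col5a2 were highest in lateral plate mesoderm in both libraries, with no overlap with the next class. Col1a1, a chain of type I collagen, had 146 and 106 CPM in lateral plate mesoderm, against 0.461 to 23.8 CPM in the other 8 classes, a difference of 3.98 ± 0.22, adjusted p = 3.89e-08. Col1a2, its partner chain, had 68.7 and 69.9 CPM there and 37.1 and 34.5 CPM in somites, against 4.15 and 4.61 CPM in neural tube. Its difference in lateral plate mesoderm was 2.54 ± 0.14. Somites were also higher for Col1a2, by 1.53 ± 0.17, adjusted p = 4.04e-05. Type I collagen chains did not vary together everywhere: in somites Col1a1 had 21.6 and 5.13 CPM, and the log2 ratio of Col1a1 to Col1a2 ranged between -2.63 and 1.08 over the 18 sums.

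Col3a1, the type III collagen chain, had 41.9 and 62.4 CPM in lateral plate mesoderm and 17.3 and 25.5 CPM in intermediate mesoderm, against 0 to 10.9 CPM in the other classes. It was higher in lateral plate mesoderm by 3.97 ± 0.21, adjusted p = 2.69e-08. The type V chains, which regulate fibril width, were higher there by 1.58 ± 0.13 for Col5a1 (36.8 and 34.4 CPM) and by 2.51 ± 0.14 for Col5a2 (33.5 and 39.6 CPM). In lateral plate cells thinned to 5000 UMIs, Col1a1 was found in 33.8% (31.8 to 36.0%) and 26.9% (25.0 to 28.8%), against 2.21% (1.06 to 4.02%) and 0% (0 to 1.34%) of neural tube cells (without thinning 60.6% and 43.0%, against 4.42% and 0.733%). The cells too shallow to thin numbered 107 and 115 in lateral plate mesoderm and 8 and 9 in neural tube. Neural tube was lower for Col1a1, at -2.20 ± 0.48, adjusted p = 0.0041, with -1.81 and -3.93 in the libraries taken singly, and it had 2 Col1a1 UMIs in replicate 2. Col2a1, the cartilage and notochord collagen, had 5.56 and 6.28 CPM in lateral plate mesoderm, against 1.16 to 45.1 CPM in the other classes. Its highest means were in surface ectoderm (8.49 and 45.1 CPM) and neural tube (13.5 and 38.7 CPM), which overlapped. Endothelium was lower, at -2.69 ± 0.72, adjusted p = 0.00741, with -2.04 and -3.70 in the libraries taken singly.

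Col9a1 and Col26a1 are collagens that form no fibrils of their own. Col9a1, a chain of type IX collagen, had 56.9 and 24.9 CPM in intermediate mesoderm and 33.3 and 18.9 CPM in lateral plate mesoderm, against 1.19 and 0.976 CPM in gut endoderm. The 2 upper classes overlapped. Its difference in intermediate mesoderm was 2.96 ± 0.22, adjusted p = 3.35e-06. Col26a1 had 90.2 and 77.8 CPM in somites and 71.3 and 67.6 CPM in intermediate mesoderm, against 14.8 and 14.3 CPM in presomitic mesoderm and 3.26 and 0.732 CPM in gut endoderm. Somites were higher by 2.93 ± 0.22, adjusted p = 8.57e-07. In intermediate mesoderm the somite markers summed to 56.9 CPM in replicate 1 and 266 CPM in replicate 2, beside 71.3 and 67.6 CPM of Col26a1. Any part of somite-like cells in the Col26a1 level was not tested.

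Fibronectin, encoded by Fn1, is the glycoprotein that cells assemble into fibrils through integrin alpha 5 beta 1. Fn1 had 854 and 1444 CPM in endothelium, 547 and 717 CPM in presomitic mesoderm and 475 and 547 CPM in gut endoderm, against 119 and 221 CPM in surface ectoderm and 73.0 and 179 CPM in neural tube. The endothelial libraries lay above every other. Endothelium was higher by 2.10 ± 0.15, adjusted p = 7.31e-08, presomitic mesoderm was higher by 1.06 ± 0.16, adjusted p = 0.00054, and neural tube was lower at -1.65 ± 0.21, adjusted p = 9.1e-05. In blood of replicate 2 the level was 35.0 CPM.

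Fibrillins are the core of microfibrils. Fbn2, a fibrillin gene of embryonic tissues, had 257 and 466 CPM in somites, against 111 and 207 CPM in endothelium, 94.4 and 179.8 CPM in intermediate mesoderm, 45.4 and 117 CPM in presomitic mesoderm and 6.21 and 12.6 CPM in surface ectoderm. Somites did not overlap with any other class. They were higher by 2.58 ± 0.09, adjusted p = 3.66e-10, and surface ectoderm was lower at -3.45 ± 0.16, adjusted p = 2.1e-09. Every class had more Fbn2 in replicate 2 than in replicate 1, with a median log2 difference of 1.01 over the 9 classes. Fbn1 was low, at 1.17 to 19.4 CPM over the 18 sums, and was higher in endothelium (1.78 ± 0.25) and lateral plate mesoderm (1.18 ± 0.22). Fbln1, the gene of fibulin 1, varied least between classes of all 36 genes, with a 2.47-fold range of class means. It had 371 and 270.3 CPM in somites, against 138 and 121 CPM in endothelium. Ltbp1 holds latent TGF-beta in the matrix. It had 33.7 and 59.2 CPM in lateral plate mesoderm and 36.7 and 47.3 CPM in intermediate mesoderm, which overlapped. Presomitic mesoderm had 39.4 and 43.7 CPM of Ltbp1, against 11.3 and 9.28 CPM in endothelium, and the libraries disagreed on the highest class.

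**Figure D3:**
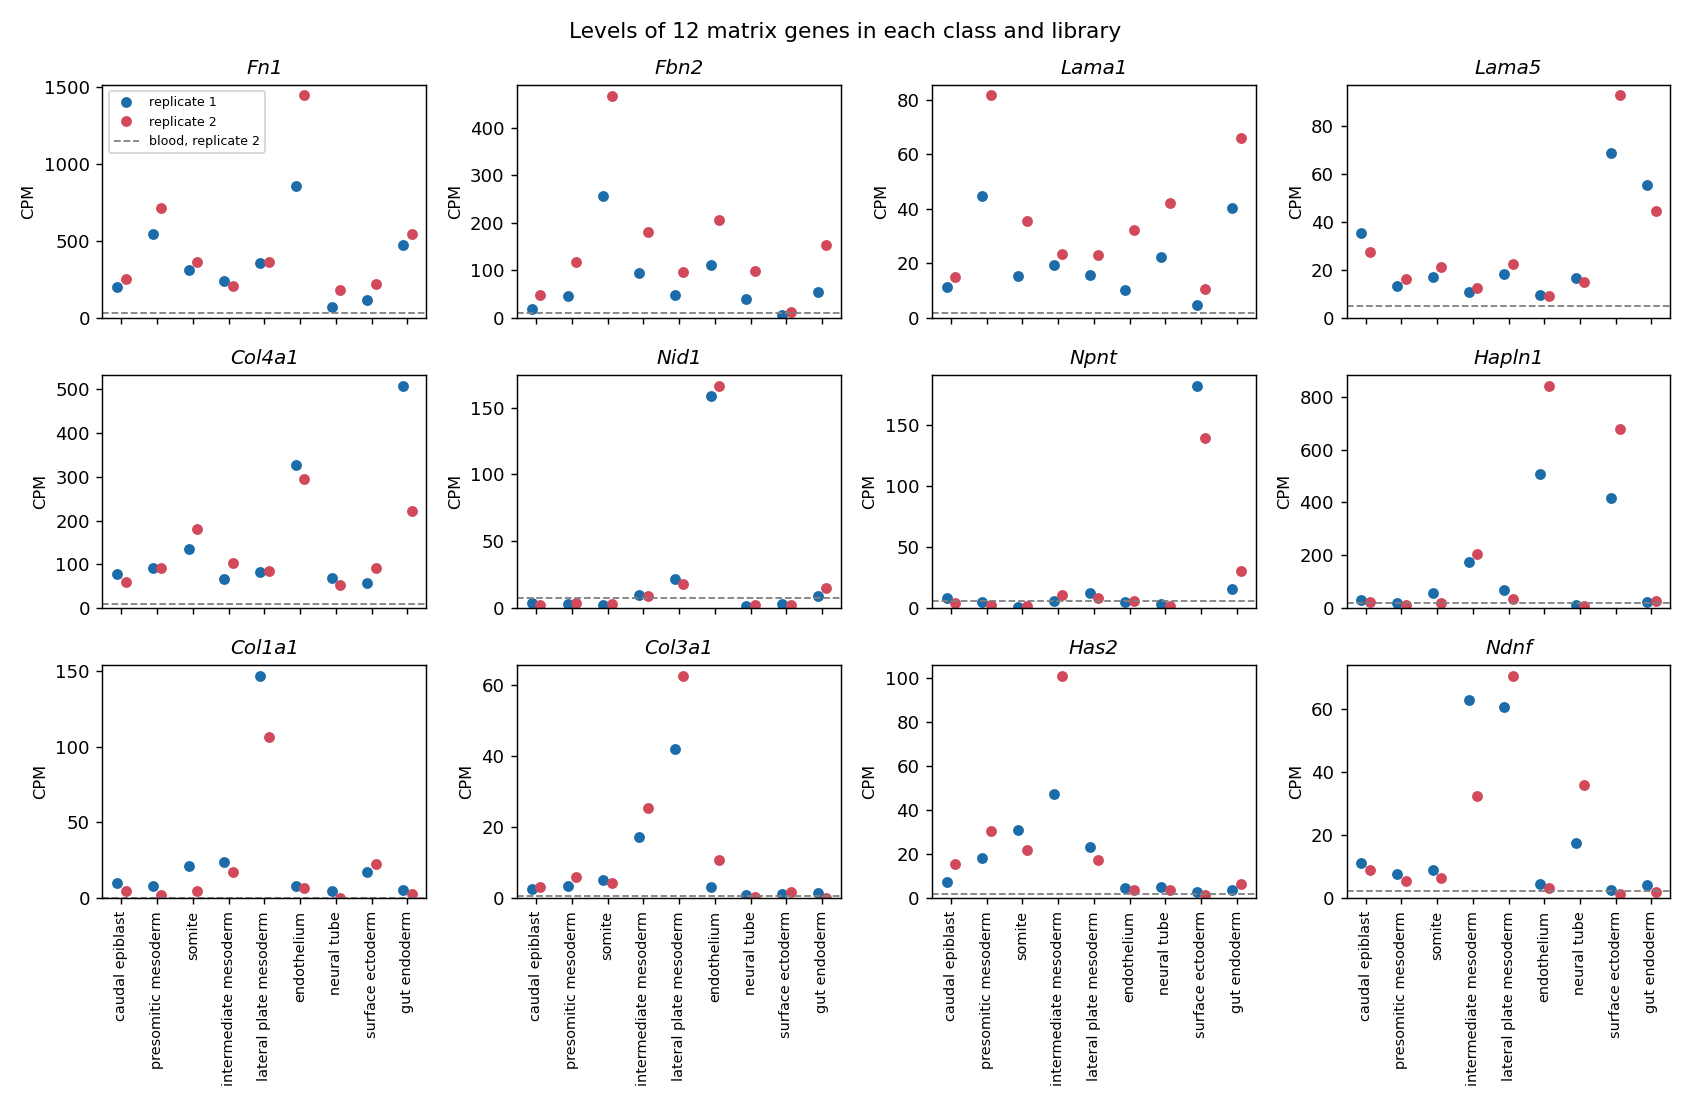
CPM of 12 matrix genes (linear axes from 0) in each class, 1 point per library, with the blood level of replicate 2 as a dashed line. The somite points of Fbn2 (257 and 466 CPM), the endothelial points of Nid1 (158 and 166 CPM) and the surface ectoderm points of Npnt (182 and 139 CPM) stand above all other classes in both libraries.

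Hyaluronan is spun out by synthases such as Has2, bound by the proteoglycan versican (Vcan), and the bond is locked by link proteins such as Hapln1. The 3 genes were high in different classes. Has2 had 47.5 and 101 CPM in intermediate mesoderm and 31.2 and 22.1 CPM in somites, against 2.97 and 1.73 CPM in surface ectoderm, with intermediate mesoderm higher by 2.99 ± 0.31, adjusted p = 8.15e-05, and by 2.38 and 3.47 in the libraries taken singly. Hapln1 had 507 and 840.1 CPM in endothelium and 415 and 679 CPM in surface ectoderm, then 174 and 205 CPM in intermediate mesoderm, against 12.6 and 7.15 CPM in neural tube. Endothelium was higher by 3.97 ± 0.22, adjusted p = 6.04e-09, and surface ectoderm by 3.48 ± 0.23, adjusted p = 6.69e-08. At 5000 UMIs Hapln1 was found in 84.5% (80.4 to 88.0%) and 90.3% (86.1 to 93.5%) of endothelial cells and in 79.4% (76.1 to 82.3%) and 88.3% (85.4 to 90.9%) of surface ectoderm cells, against 3.01% (0.825 to 7.52%) of blood cells. Without thinning the shares were 96.8% and 96.4% in endothelium and 6.77% in blood, and thinning left out 26 and 20 endothelial cells. The same classes were low for Vcan. It had 44.9 and 41.8 CPM in endothelium, at -1.51 ± 0.39, adjusted p = 0.00563, and 33.8 and 41.1 CPM in surface ectoderm, at -1.96 ± 0.38, adjusted p = 0.0015, against 69.2 to 335 CPM elsewhere. The gut endoderm libraries stood far apart for Vcan, at 69.2 and 335 CPM.

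Sparc, Tnc, Postn and Ndnf encode secreted proteins that modulate how cells attach to matrix. Sparc, a collagen-binding glycoprotein of basement membranes, had 689 and 565 CPM in endothelium and 343 and 272 CPM in gut endoderm, against 30.3 and 12.4 CPM in somites. It was higher in endothelium by 3.61 ± 0.10, adjusted p = 2.14e-12 and in gut endoderm by 2.33 ± 0.11, adjusted p = 1.52e-09, and lower in somites (-1.99 ± 0.17) and presomitic mesoderm (-1.78 ± 0.15). Ndnf, a fibronectin type III domain protein known as a neurotrophic factor, had 60.4 and 70.3 CPM in lateral plate mesoderm and 62.7 and 32.2 CPM in intermediate mesoderm, against 2.55 and 1.24 CPM in surface ectoderm. Its difference in lateral plate mesoderm was 3.02 ± 0.20, adjusted p = 1.92e-07. Postn, the periostin gene, had 34.8 and 18.8 CPM in lateral plate mesoderm, against 0 to 3.25 CPM elsewhere, a difference of 4.72 ± 0.38, adjusted p = 1.31e-06. Tnc, the tenascin C gene, stayed at 0 to 3.79 CPM in all 18 sums and was at or below 3 UMIs in 9 of them, so its differences rest on few molecules. In lateral plate mesoderm Tnc was higher by 2.55 ± 0.45, adjusted p = 0.00152, with 2.86 and 1.08 in the libraries taken singly.

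The step from caudal epiblast to presomitic mesoderm is known as the passage of neuromesodermal cells into paraxial mesoderm. In presomitic mesoderm 7 of the 36 genes were higher and 6 lower than in caudal epiblast, against 4.04% and 5.73% of all genes (median log2 difference -0.15 beside 0.0037). Lama1 had 44.6 and 81.5 CPM in presomitic mesoderm, against 11.4 and 15.0 CPM in caudal epiblast, a difference of 2.20 ± 0.21, adjusted p = 2.82e-05. Lama5 went the other way, with 13.4 and 16.4 CPM in presomitic mesoderm, against 35.4 and 27.7 CPM in caudal epiblast (-1.08 ± 0.18, adjusted p = 0.00173). Fn1 had 547 and 717 CPM in presomitic mesoderm, against 205 and 252 CPM in caudal epiblast (1.47 ± 0.24, adjusted p = 0.00153), and Fbn2 was higher by 1.26 ± 0.14. Col18a1 was lower, at -1.72 ± 0.29, adjusted p = 0.00172. Col9a1, Col1a2, Col26a1 and Ltbp1 were also higher, and Frem2, Sparc, Lamb2 and Lamc1 lower.

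Somites are the epithelial blocks that form from presomitic mesoderm. Relative to presomitic mesoderm, 5 genes were higher and 6 lower in somites, against 4.27% and 4.52% of all genes (median 0.11 beside -0.02). Fbn2 was higher by 2.27 ± 0.14, adjusted p = 9.03e-07, and Col26a1 by 2.55 ± 0.34, adjusted p = 0.00033. Col18a1 (1.21 ± 0.30) and Col1a2 (0.95 ± 0.23) were higher too, as was Fbln1 (0.46 ± 0.10). Lama1 had 15.2 and 35.4 CPM in somites, against 44.6 and 81.5 CPM in presomitic mesoderm, and was lower at -1.33 ± 0.22, adjusted p = 0.00152. Fn1 had 309 and 366 CPM in somites, against 547 and 717 CPM in presomitic mesoderm (-0.87 ± 0.24, adjusted p = 0.0381). Fras1, Ltbp1, Lamc1 and Lamb2 were lower as well. Both steps use the presomitic libraries, so their calls are not independent. Without the library block, 5 and 1 of these genes passed in the steps into presomitic mesoderm and into somites, and the shares of all genes were not counted.

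**Figure D4:**
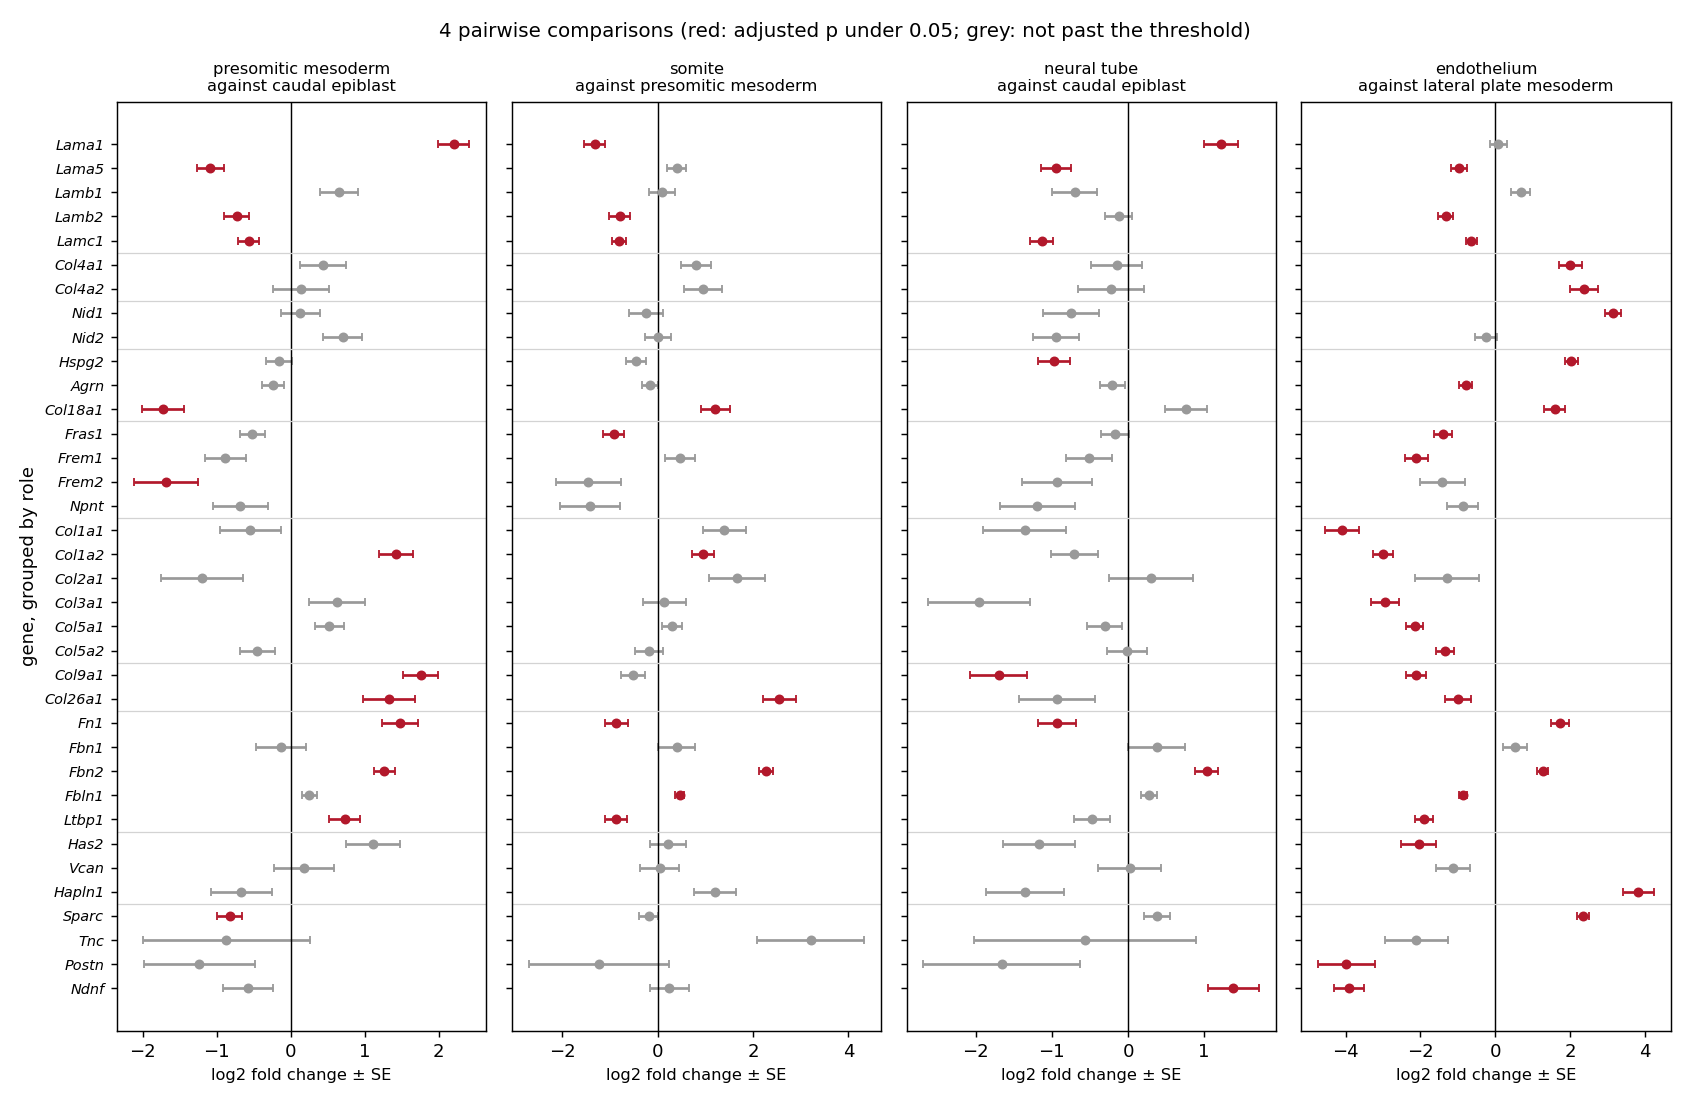
Log2 fold change ± SE of the 36 genes in 4 pairwise comparisons, with genes past an adjusted p of 0.05 in red and others in grey. Lama1 lies at 2.20 in presomitic mesoderm against caudal epiblast and at -1.33 in somite against presomitic mesoderm, and Fbn2 lies above 0 in all 4 panels.

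In neural tube 3 of the 36 genes were higher and 5 lower than in caudal epiblast, against 3.99% and 5.37% of all genes (median -0.54 beside -0.02). Lama1 had 22.2 and 42.0 CPM in neural tube, against 11.4 and 15.0 CPM in caudal epiblast (1.22 ± 0.22, adjusted p = 0.00313). Fbn2 was higher by 1.03 ± 0.15 and Ndnf by 1.38 ± 0.34, with 0.65 and 2.01 in the libraries taken singly. Lamc1 had 37.7 and 45.2 CPM in neural tube, against 78.4 and 108 CPM in caudal epiblast (-1.13 ± 0.15, adjusted p = 0.000332). Lama5 was lower at -0.95 ± 0.20, as were Hspg2 (-0.97 ± 0.21) and Col9a1 (-1.70 ± 0.37, with -1.89 and -1.09 in the libraries taken singly). Fn1 was lower at -0.93 ± 0.25, adjusted p = 0.0317, with -1.47 and -0.48 in the libraries taken singly. Without the library block 2 of the 36 genes passed in this comparison, and without the filter on low counts 14 passed. The shares of all genes under these settings were not counted.

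Endothelium and lateral plate mesoderm differed in most of the 36 genes, with 9 genes higher and 18 lower in endothelium, against 18.5% and 15.9% of all genes (median -0.98 beside -0.04). The higher genes were Hapln1 (3.83 ± 0.41, adjusted p = 8.12e-06, with 3.02 and 4.66 in the libraries taken singly), Nid1 (3.15 ± 0.21, adjusted p = 9.91e-08), Col4a2 (2.38 ± 0.38), Sparc (2.35 ± 0.16), Hspg2 (2.04 ± 0.17), Col4a1, Fn1, Col18a1 and Fbn2. Col1a1 had 7.81 and 6.49 CPM in endothelium, against 146 and 106 CPM in lateral plate mesoderm (-4.09 ± 0.45, adjusted p = 9.85e-06). Ndnf was lower at -3.91 ± 0.40, adjusted p = 6.25e-06, and Col1a2 at -3.003 ± 0.27, adjusted p = 1.6e-06. Summed lateral plate markers were at 74.8 and 82.8 CPM in endothelium, against 857 and 931 CPM in lateral plate mesoderm.

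A further 4 classes were too small or too uneven for a test and are given as levels. Notochord (75 and 48 barcodes) had 132 and 124 CPM of Col2a1, against 1.16 to 45.1 CPM in the 9 tested classes, and 106 and 154 CPM of Frem2. Its Nid2 level was 181 and 88.3 CPM, and its Fn1 level 346 and 473 CPM. Allantois (26 barcodes in each library) had 655 and 677 CPM of Fn1 and 206 and 55.1 CPM of Col1a1, whose libraries stood far apart. Extraembryonic endoderm was nearly all in replicate 1 (192 barcodes, against 7 in replicate 2). There Col4a1 was at 356 CPM, Sparc at 385 CPM and Nid2 at 122 CPM. Blood (141 barcodes, replicate 2) had 35.0 CPM of Fn1, 23.3 CPM of Lamc1 and 19.8 CPM of Hapln1, and 0 UMIs of Col1a1.

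Companion genes of the matrix, which are no members, were counted in 5 lists in the same fit. Integrins are the main matrix receptors. In endothelium 7 of 14 tested were higher and 2 lower, against 24.8% and 20.8% of all genes (median 0.80 beside -0.04). The higher ones included the fibronectin receptor chain Itga5 at 113 and 106 CPM (2.17 ± 0.15, adjusted p = 6.22e-08). Presomitic mesoderm had 3 higher and 4 lower, against 9.38% and 7.04% of all genes (median -0.17 beside 0.02), and was higher for Itgb8, at 22.9 and 26.9 CPM (2.30 ± 0.14, adjusted p = 1.51e-07). Itga3, a laminin receptor chain, had 69.1 and 89.0 CPM in surface ectoderm and 70.1 and 51.7 CPM in gut endoderm, against 2.01 and 1.24 CPM in somites. Adhesion adaptors, which tie integrins to actin, were higher in endothelium for 8 of 9 and lower for 1, against the same shares of all genes in endothelium (median 0.78). Talin 1, Tln1, was among them, at 119.9 and 142 CPM (1.35 ± 0.10).

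Genes that fold and crosslink collagen moved in opposite directions in lateral plate mesoderm and neural tube. Of 15 tested, 10 were higher and 0 lower in lateral plate mesoderm, against 8.81% and 6.27% of all genes (median 0.36 beside 0.0073). Among the higher ones were the prolyl hydroxylases P4ha2 (1.41 ± 0.19) and P3h2 (1.32 ± 0.20). In neural tube 0 were higher and 12 lower, against 13.6% and 12.7% of all genes (median -0.66 beside -0.0095). Among the lower ones was the collagen chaperone gene Serpinh1, at 317 and 423 CPM (-1.15 ± 0.12, adjusted p = 1.04e-05). Endothelium had 9 of these 15 genes higher and 3 lower, against 24.8% and 20.8% of all genes (median 0.60 beside -0.04). Gut endoderm had 6 higher and 1 lower, against 25.6% and 19.7% (median 0.22 beside 0.0081). The lysyl hydroxylase gene Plod1 had 65.7 and 60.5 CPM in somites, against 20.5 and 17.1 CPM in presomitic mesoderm (1.77 ± 0.16, adjusted p = 1.21e-05). Other matrix receptors were higher in surface ectoderm for 7 of 14 and lower for 4, against 18.4% and 13.5% of all genes (median 0.34 beside 9.8e-05). Bcam, a receptor of the laminin alpha 5 chain, had 512 and 542 CPM in surface ectoderm and 391 and 295 CPM in gut endoderm, the 2 classes with the most Lama5, against 19.7 and 11.1 CPM in somites. In endothelium 1 was higher and 10 lower, against 24.8% and 20.8% of all genes (median -1.19 beside -0.04). Of the proteases and their inhibitors, 6 of 16 were higher in lateral plate mesoderm and 0 lower, against 8.81% and 6.27% of all genes (median 0.33 beside 0.0073). Endothelium had 7 of these 16 higher and 4 lower, against 24.8% and 20.8% of all genes (median 0.43 beside -0.04). The gelatinase gene Mmp9 had 26.9 and 93.7 CPM in endothelium (6.81 ± 0.34, adjusted p = 1.53e-09, with 5.37 and 7.51 in the libraries taken singly), and Mmp2 had 131 and 136 CPM in lateral plate mesoderm (1.44 ± 0.09, adjusted p = 8.57e-08).

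Barcodes under 0.3% mitochondrial UMIs, 11242 in replicate 1 and 5184 in replicate 2, were left out by the rule, and in them the median level of each gene compared was lower. Gated the same way, their CPM over that of the kept barcodes of the same class and library had a median between 0.10 for Col3a1 and 0.39 for Sparc. Fn1 stood at 0.13 times, Fbn2 at 0.14 times and Fbln1 at 0.37 times the kept level. The summed level of the 36 genes was 0.081 to 0.458 times that of the kept barcodes over the class and library pairs with at least 50 such barcodes. The same ratio was not computed over all genes, so these values do not set the list apart from other genes. Between the libraries, Lama1, Lamb2, Lamc1, Hspg2, Fras1 and Fbn2 were higher in replicate 2 in all 9 classes, and Col9a1, Col26a1, Fbln1 and Sparc in 0 of 9. The block for library removes such shifts from the tests where they are alike in all classes.

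**Figure D5:**
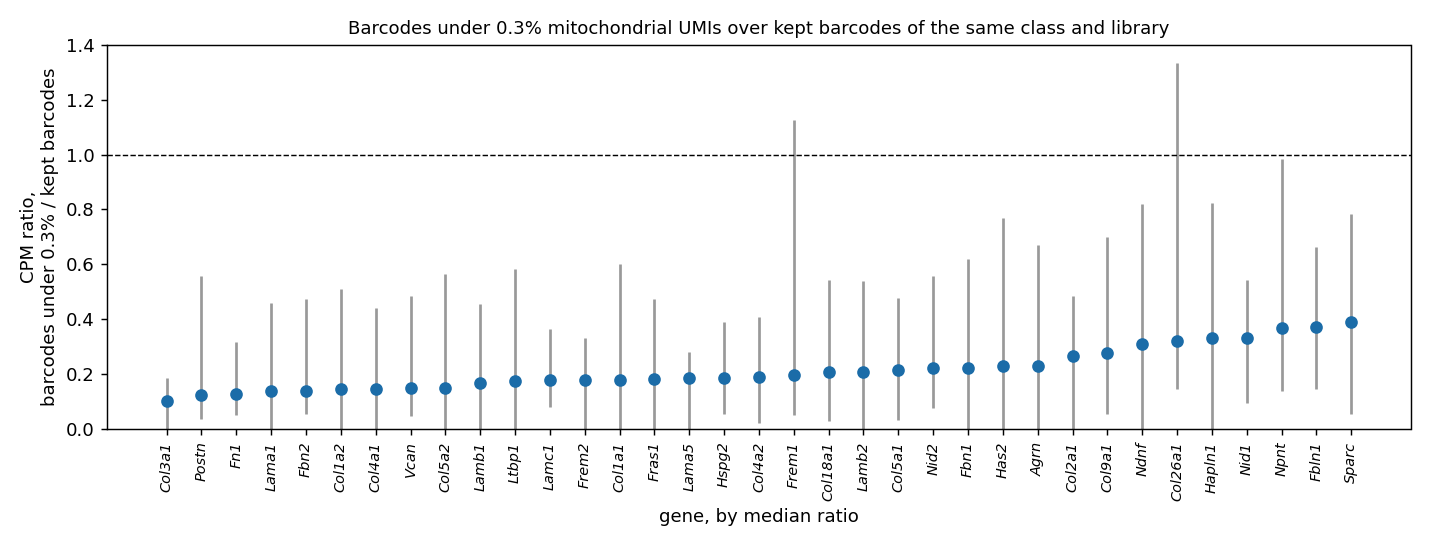
For 35 genes, the CPM in barcodes under 0.3% mitochondrial UMIs divided by that in kept barcodes of the same class and library, as the median (point) and range (line); the dashed line marks a ratio of 1. The medians lie between 0.10 and 0.39, and the ratio over all genes was not computed.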

How the data were processed

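Cells of caudal tissue were counted in 2 libraries. The deposited values are raw UMI counts of the authors for each gene in each barcode. The submitters' processing notes name Cell Ranger 6.1.1 and mm10; no annotation is named there. Total counts were 295866003 and 150964773 UMIs. The 36 members, the marker lists and the companion lists were chosen with earlier results of these data known.

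Kept barcodes were gated on 72 marker genes of 13 classes, where markers of blood and extraembryonic endoderm needed 5 UMIs each, to allow for free RNA. A tie left 1529 and 867 barcodes ungated, and too few markers 654 and 502. Doublets were not removed in the main analysis; Scrublet (scanpy 1.11.5, seed 0) marked 8.63% and 3.28% of kept barcodes. Counts were summed per class and library, and the 9 classes with at least 50 barcodes in both libraries (18 sums) were fitted with edgeR 4.0.16 (TMM, filterByExpr, quasi-likelihood F test, Benjamini-Hochberg adjustment over 14125 genes). CPM are counts scaled to 1000000 per class. Standard errors are the fold change over the root of F. The fit was also run on simulated counts that held no library effect, so that run does not check the block.

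Library was a block because classes of 1 library come from 1 pool: deviations of same-numbered sums from their class means correlated in all 36 class pairs (r 0.15 to 0.71, median 0.40). Named with full statistics were, per comparison, the 5 members with the largest change among those past the threshold, alike in direction in both libraries and at 20 CPM or more in a compared class; further members are named to account for the list. Of each companion list up to 3 genes were eligible. Levels are not compared between genes. A count of 0 allows up to 3 UMIs.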

Additional observations from a re-analysis of the deposited data

How the results depend on the processing

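Of the 246 member and comparison pairs past the threshold, out of 468 tested, all 246 had the same direction in both libraries, and 0 changed sign under any alternative. The shares of all genes past the threshold are given above for each comparison, and no share over all comparisons together was counted. With 2 libraries per class, a pair whose libraries disagree can hardly pass, so the agreement in direction follows largely from the selection. DESeq2 1.42.0 kept 241 pairs past the threshold, no filter on low counts 245, at least 4000 UMIs 245, leaving out Scrublet doublets 238 and keeping barcodes under 0.3% mitochondrial UMIs 228. Requiring 3 markers kept 223 and lost 11, and requiring a lead of 2 markers, chosen after seeing the data, kept 214 and lost 20; under both, intermediate mesoderm fell under 50 barcodes and gave no value. The replicate block mattered most. Without it 170 pairs passed: the count of members called fell to 3 in caudal epiblast (16 with the block), 10 in presomitic mesoderm (16), 5 in presomitic mesoderm against caudal epiblast (13), 1 in somite against presomitic mesoderm (11) and 2 in neural tube against caudal epiblast (8). The neural tube count against caudal epiblast was 14 without the low-count filter and 5 with a lead of 2 markers. The cause was not tested, and the shares of all genes under these settings were not counted.

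Leaving out a library leaves no spread to test, so only values could be given. Of the 246, 15 moved by more than their spread without replicate 1 and 1 without replicate 2. The spread was the SD of the 2 library values or the SE, whichever was larger. Each library value always lies within that SD of the mean of the 2, so few values could move. These counts follow largely from the rule. The highest class stayed for 30 of 36 genes without replicate 1 and for 29 without replicate 2. It stayed for 32 to 36 under the alternatives on barcodes and gates. Low counts limit Tnc, Postn and Col3a1 outside lateral plate mesoderm, and 2 libraries limit every test.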

Other observations

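The ratio of Lama1 to Lama5, read only for how it varies, ran from -3.63 on the log2 scale in surface ectoderm of replicate 1 to 2.24 in presomitic mesoderm of replicate 2 (SD 1.55 over the 18 sums). The ratio of Fbn1 to Fbn2 lay between -5.98 and -1.57 (SD 1.36), and that of Frem1 to Frem2 between -2.02 and 1.90 (SD 1.41). After Col4a1 with Col4a2, the highest correlation of levels over the 18 sums was that of Fras1 with Frem2 (r = 0.88), given as a description of sums that share 2 libraries.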
